A study of Mus musculus with 4 samples.

Results

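TAD2 is a gene-poor topologically associating domain (TAD) of the mouse Epidermal Differentiation Complex on chromosome 3. It was taken here as the fragments with a midpoint from 90.635 to below 91.85 Mb of the mm9 assembly. Its spatial contacts were read from 5C, a method that joins pairs of probes annealed to the ends of ligated restriction fragments and so counts how often these fragments met. Contacts between 2 TAD2 fragments, and contacts of a TAD2 fragment with any fragment outside the range of TAD5 (93.53 to 94.0025 Mb), were kept. They were 21828 of the 111588 contacts that appear in any library, and 3574 of the 23395 contacts that all 4 libraries list. The 2 keratinocyte libraries came from epidermal cells of newborn C57BL/6 mice, plated for 15 hours at 32 °C, and the 2 thymocyte libraries from T cells of the total thymus of newborn C57BL/6 mice. No genetic change or treatment separated the groups, and all cells were fixed for 10 min in 1% formaldehyde. Whole thymus T cells and plated epidermal cells are mixtures of differentiation stages, and the tables hold no expression values, so the labelled cell types could not be checked against marker genes.

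TADs are stretches of chromatin whose sequences meet each other more often than they meet sequences across the TAD border. Gene-poor stretches are known to lie often in condensed, inactive chromatin, and such stretches can contact each other over the gene-rich chromatin between them. The Epidermal Differentiation Complex holds the genes for the cornified envelope, the protein shell of the outer epidermis, beyond the border of TAD2 with TAD3. The TAD1 side holds S100 genes and other genes.

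TAD2 held 77 probed HindIII fragments, 37 with a forward and 40 with a reverse probe, or 6.34 per 100 kb, against 14.2 to 20.3 per 100 kb in TAD1, TAD3, TAD4, TAD6 and TAD7. The median GC content of these fragments was 38.4%, against 39.9 to 45.3% for the fragments of the gene-rich TADs. The Gencode annotation places 2 protein-coding genes in TAD2, against 19 to 36 in each gene-rich TAD. These are 9130204L05Rik (chr3:90892059-90894727, minus strand) and Pglyrp3 (chr3:91818505-91835504, plus strand), which encodes a peptidoglycan recognition protein. No probed fragment lies in the 162 kb from 91481299 to 91643745, so the contacts of that stretch were not measured.

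The range was divided into 4 segments of equal length, counted from the border with TAD1. 9130204L05Rik lies in segment 1 and Pglyrp3 in segment 4, and segments 2 and 3 hold no annotated gene. The stretch from 91.85 Mb to the average keratinocyte border with TAD3 at 91.895 Mb, which holds the gene for loricrin (Lor), is called the border strip here.

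A few TAD2 fragments are named in the results below. The parts of their 5C probes that anneal to the genome are shown 5′ to 3′ to say exactly which ends were measured. The capitals mark the end of the HindIII site at which a forward probe (AAG) and a reverse probe (CTT) meet when their fragments were ligated. All 77 probes of TAD2 matched the mm9 sequence at their stated positions. REV_236 (chr3:90646098-90646127) is the probe nearest to the TAD1 border, FOR_313 (chr3:90888284-90888313) lies within 5 kb of 9130204L05Rik, REV_364 (chr3:91013344-91013373) lies in segment 2, REV_471 (chr3:91277165-91277194) and REV_538 (chr3:91475188-91475217) lie in segment 3, and FOR_628 (chr3:91745157-91745186), FOR_643 (chr3:91770283-91770312) and REV_665 (chr3:91835295-91835324) lie in segment 4, the last within 5 kb of Pglyrp3. Forward probes match the plus strand and reverse probes the minus strand.
REV_236: CTTcatgtctctgagatacacgtcttttcc
FOR_313: actgtgaccccagtctgttcttagagaAAG
REV_364: CTTttaccatgttgcttttcaactatcatg
REV_471: CTTaaaggagtgggttatttctacatgttc
REV_538: CTTaaattacacctcagaactcactcatta
FOR_628: atatgatatgtcttactttgattcaggAAG
FOR_643: ttccaattgaacccatggcaaatactcAAG
REV_665: CTTcatttggaggcttttctgtaaaacaca

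For every contact it lists, a library gives the 5C frequency after correction and the value expected for contacts that far apart. It also gives a Z score, the distance of the measured value from that expectation in standard deviations (SD). A Z score of 0 is therefore a contact as frequent as others of its distance in the same library. The libraries listed different shares of the possible pairs of TAD2 fragments with their partners, with 76.7% and 57.4% in keratinocytes and 36.3% and 39.4% in thymocytes (library 1 before library 2 here and below). The read depth behind these values is unknown. Means are therefore given over the contacts that all 4 libraries list, unless stated. Across the 3574 TAD2 contacts, Pearson's r of the Z scores was 0.322 for the pair of keratinocyte libraries, 0.231 for the pair of thymocyte libraries, and 0.364 between keratinocyte library 2 and thymocyte library 1. Keratinocyte library 2 was thus closer to a thymocyte library than to its replicate in this measure, so the partner means are also given without 1 library where that matters. Windows, distance classes, genes, enhancers, segments and fragments were not recomputed without a library, nor were single partners at equal distance. The contacts share fragments, and these correlations are descriptions. With 2 libraries against 2, the exact permutation test cannot give a p below 0.333, and any p describes only the spread between these libraries, which the study describes as biological replicates, though the labels do not name the animals behind them.

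TAD2 had lower Z scores with its neighbour TAD1 in both keratinocyte libraries than in both thymocyte libraries, while TAD4 was its partner with the highest mean Z score in every library. For the 546 contacts with TAD1, keratinocyte library 1 had a mean Z score of -0.279 and keratinocyte library 2 one of 0.138, against 0.474 and 0.551 in the first and second thymocyte library. Both thymocyte libraries lay above both keratinocyte libraries. The keratinocyte mean was -0.0707 ± 0.295 (SD, n = 2) and the thymocyte mean 0.512 ± 0.0542 (SD, n = 2), and they differed by -0.583, more than each SD (exact permutation test, two-sided, p = 0.333). Adjusted over the 6 partners tested, this p and all others became 1. Without keratinocyte library 1 the difference was -0.374, and without keratinocyte library 2 it was -0.792. A few strong contacts carry the thymocyte mean, since its median Z score was below 0 (-0.0867 and -0.0621), as in keratinocytes (-0.428 and -0.0498). By the median the libraries of the cell types overlapped, and keratinocyte library 1 alone stood apart. There the median corrected frequency was 0.768 times the expected, against 0.979, 0.962 and 0.977 in the other libraries.

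With TAD4 (1067 contacts) the keratinocyte libraries had mean Z scores of 1.23 and 0.862, and the thymocyte libraries 0.657 and 1.12. These groups overlapped, with means of 1.05 ± 0.262 (SD, n = 2) and 0.889 ± 0.329 (SD, n = 2) and a two-sided exact permutation p of 0.667. Without keratinocyte library 1 the difference of 0.158 became -0.0272, and without thymocyte library 1 it became -0.0747. The median contact separated the cell types, with an observed frequency of 1.48 and 1.19 times the expected in keratinocytes against 1.09 and 1.07 times in thymocytes. A Z score above 0 was found for 71.7% and 68.8% of these contacts in keratinocytes and for 58.2% and 56.1% in thymocytes. Over all contacts of the locus these shares were 56.5% and 59.7% in keratinocytes and 57.5% and 55% in thymocytes, so the thymocyte shares with TAD4 were near the background. The order of partners by the mean was not that by the median, since in both thymocyte libraries the median Z score with TAD3 (0.236 and 0.262) was above that with TAD4 (0.212 and 0.17), and in keratinocyte library 2 internal contacts (0.45) were above TAD4 (0.412).

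The 386 contacts internal to TAD2 had mean Z scores of 0.665 and 0.518 in the keratinocyte libraries, against 0.492 and 0.215 in those of thymocytes. Both keratinocyte values lay above both thymocyte values, and the median Z score gave the same order (0.404 and 0.45 against 0.31 and 0.0699). The difference in means of 0.238 exceeded both SDs (0.104 and 0.196, n = 2 each, exact permutation test, two-sided, p = 0.333). Without thymocyte library 2 it was 0.0993, and without thymocyte library 1 it was 0.376. It depended on the limits of TAD2. With the average keratinocyte borders, which add the border strip, it was 0.114 and the groups overlapped, and with the average thymocyte borders, 90.77 and 92.0825 Mb, it turned to -0.0784. The groups also overlapped with equal weight per fragment (0.155) and over the contacts listed by each cell type's own pair of libraries (0.12). The 82 contacts with the border strip were lower in keratinocytes, with mean Z scores of -0.429 and -0.00552 against 0.407 and 0.0576.

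By the mean Z score the other gene-rich partners did not separate the cell types. It with TAD3 (970 contacts) was 0.581 and 0.488 in keratinocytes and 0.533 and 0.729 in thymocytes, and that with TAD6 (393 contacts) was 0.584 and 0.531 against 0.446 and 0.649. The median Z score with TAD3 was lower in both keratinocyte libraries, at 0.116 and 0.188 against 0.236 and 0.262. A Z score above 0 was found for 52.6% and 58.6% of these contacts, against 61.8% and 62.7%, with 56.5% and 59.7% against 57.5% and 55% over all contacts. For TAD7 (130 contacts) the mean was 0.134 and 0.532 against 0.288 and 0.285. For comparison, all 23395 contacts averaged 0.515 and 0.577 in keratinocytes and 0.613 and 0.701 in thymocytes.

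**Figure D1:**
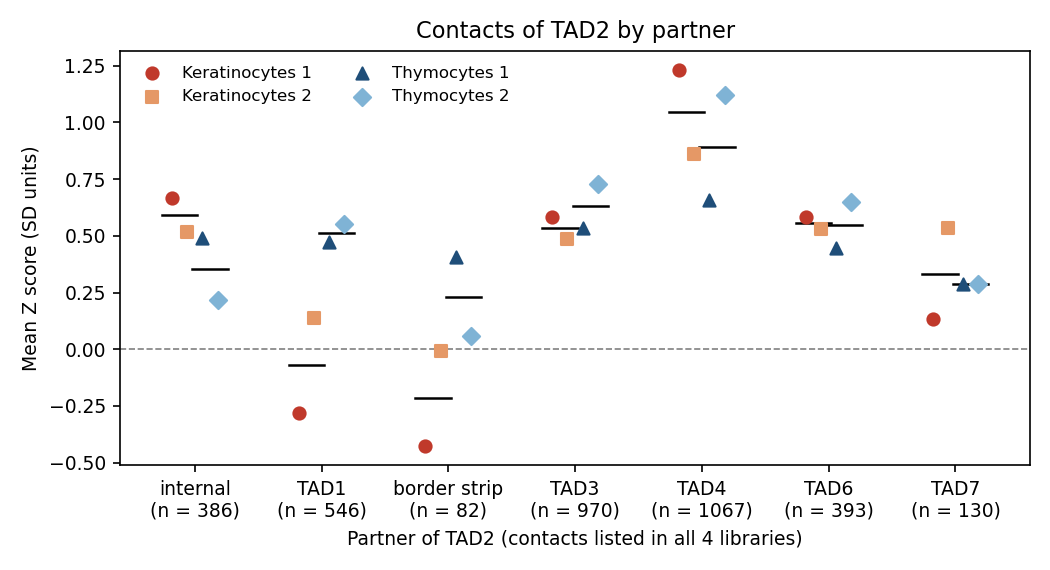
Mean Z score (vertical axis, SD units) of the TAD2 contacts by partner (horizontal axis, with the number of contacts), 1 point per library and 1 line per cell type mean (n = 2 libraries). The keratinocyte points lie below both thymocyte points for TAD1 and the border strip and above them for internal contacts, and TAD4 is the highest partner in every library.

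Seen along the locus in windows of 100 kb, the partners of TAD2 formed a stretch low in keratinocytes on both sides of it and a stretch of high Z scores beyond. In all 7 windows of TAD1 and all of the first 6 windows after TAD2, both thymocyte libraries lay above both keratinocyte libraries. Over all contacts of the locus, 48% of 50 such windows did so. The Z scores of single contacts with TAD1 spread more widely in thymocytes (SD 2.46 and 2.47) than in keratinocytes (1.17 and 1.51). By the median the libraries overlapped for TAD1, as given above. Windows, genes, enhancers and segments are given as means only, and their medians were not computed. In the window that starts 1265 kb from the TAD1 border, the mean Z score was -0.646 and -0.0118 in keratinocytes and 0.294 and 0.409 in thymocytes. From the window that starts at 1765 kb on, where the Lce1 genes begin, the keratinocyte means of several windows were well above those of the windows before, at 1.17 and 0.782 there and at 2.15 and 1.29 in the window at 1965 kb. Far from TAD2 they came down again, to 0.0744 and 0.106 in the window at 3665 kb. In thymocytes the same windows gave 0.599 and 0.904, and 0.731 and 1.44, which overlapped with those of keratinocytes. Of these 23 later windows, 6 had both keratinocyte libraries above both thymocyte libraries (10% of windows over all contacts of the locus). The windows on either side of TAD5, at 2765 and 3365 kb, were among these 6, with 2.26 and 1.84 in keratinocytes against 0.909 and 1.41 in thymocytes, and with 3.15 and 1.79 against 0.516 and 1.37 (17 contacts).

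**Figure D2:**
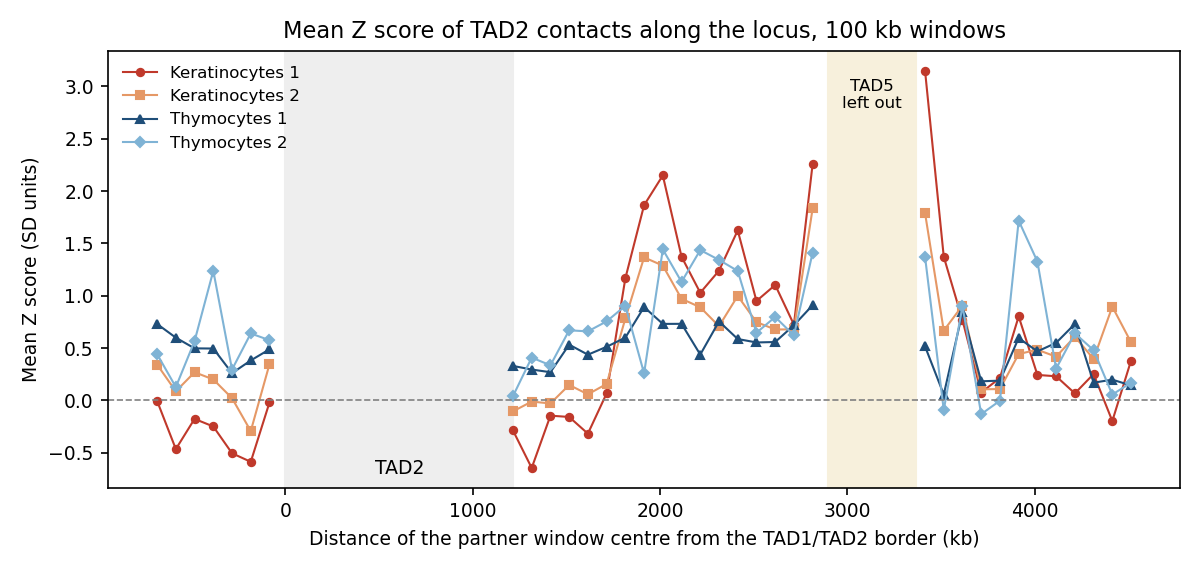
Mean Z score of TAD2 contacts (vertical axis, SD units) in 100 kb windows of partner position (horizontal axis, window centre in kb from the border of TAD1 and TAD2), 1 line per library, with TAD2 and the omitted TAD5 shaded. The keratinocyte lines run below the thymocyte lines in TAD1 and in the first 6 windows after TAD2, and climb to 2.15 and 1.29 in the window that starts at 1965 kb.

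The partners were also compared at equal distance. TAD2 contacts were compared in bins of 50 kb with contacts that joined 2 different gene-rich TADs at the same distance. Contacts with TAD1 were below them in all 4 libraries, by -0.628 and -0.31 in keratinocytes and by -0.0931 and -0.0397 in thymocytes (two-sided exact sign-flip permutation p = 0.125, the smallest that 4 libraries allow). Contacts with TAD4 were above them in all 4 libraries, by 0.866, 0.311, 0.00603 and 0.318 in the same order (two-sided exact sign-flip permutation p = 0.125). Contacts with TAD7 were below them by -0.351, -0.459, -0.32 and -0.404. Over all 5 gene-rich partners the differences were 0.244, 0.0255, -0.0737 and 0.113, with no common direction. Set against contacts within gene-rich TADs, the internal contacts of TAD2 were lower in all 4 libraries, by -0.136 and -0.208 in keratinocytes and by -0.258 and -0.631 in thymocytes (two-sided exact sign-flip permutation p = 0.125). With medians in the bins this difference was 0.0107 on average, with no common direction. It also depended on the TAD compared. Internal TAD2 contacts lay 1.12 below those within TAD7 on average, in all 4 libraries, and above those within TAD4 in both keratinocyte libraries (0.499 and 0.314).

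Within a partner, the Z score moved with distance. Internal contacts under 50 kb apart (54 contacts) had a median corrected frequency of 2088 and 1344 in keratinocytes and 1369 and 1287 in thymocytes. Between 500 and 1000 kb (110 contacts) the medians had fallen to 198 and 107, and to 65.8 and 65.9. The mean Z score of internal contacts from 100 to 250 kb was 0.799 and 0.703 in keratinocytes against 0.414 and 0.0563 in thymocytes. The order was opposite for the 12 contacts that span over 1000 kb, from one end of TAD2 to the other, with 0.127 and -0.066 in keratinocytes against 2.21 and 1.7 in thymocytes. A single contact, FOR_643 with REV_236, carried much of this, and without it the 11 others gave 0.176 and -0.075 against 1.29 and 0.412. Contacts with TAD3 at 100 to 250 kb, across the border strip, had mean Z scores of -0.923 and -0.306 in keratinocytes and -0.21 and 0.0302 in thymocytes (42 contacts). At 500 to 1000 kb the same pair of TADs gave 0.915 and 0.587 against 0.462 and 0.621 (386 contacts). At the same 500 to 1000 kb, contacts with TAD1 gave -0.382 and 0.00571 against 0.535 and 0.314 (208 contacts), and contacts with TAD4 gave 1.92 and 1.41 against 1.25 and 1.35 (42 contacts).

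**Figure D3:**
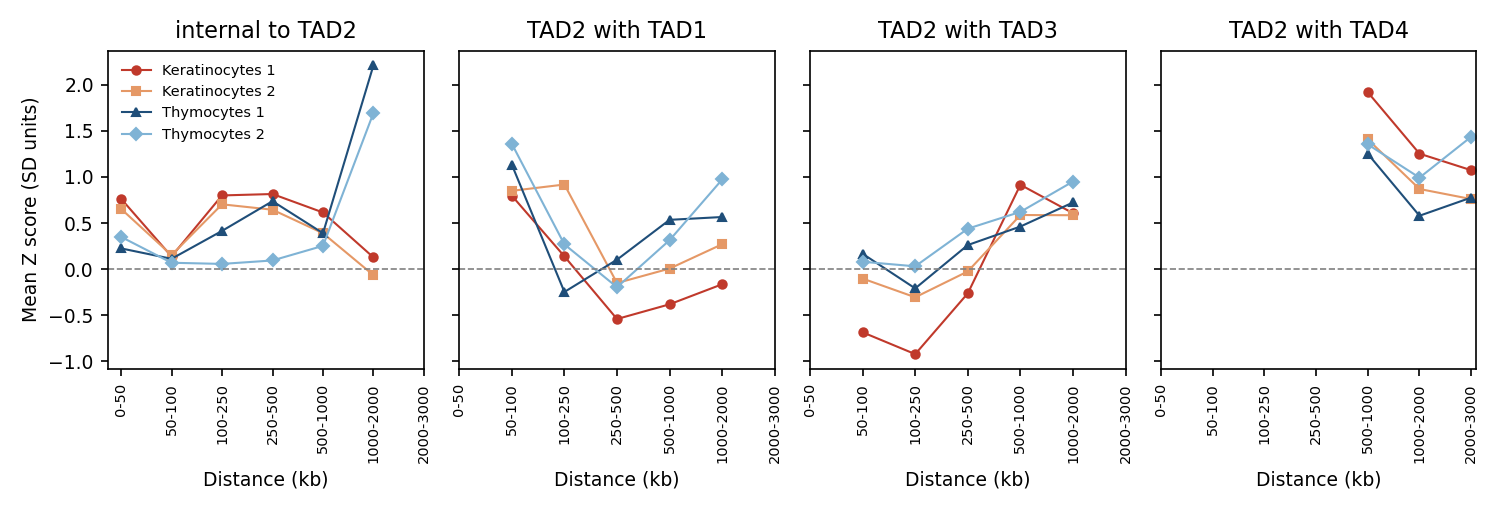
Mean Z score (vertical axis, SD units) by class of genomic distance (horizontal axis, kb) for contacts internal to TAD2 and with TAD1, TAD3 and TAD4, 1 line per library, for classes of 5 or more contacts. In keratinocytes the TAD3 contacts go from below 0 at 100 to 250 kb to 0.915 and 0.587 at 500 to 1000 kb, while those with TAD1 at 500 to 1000 kb lie at -0.382 and 0.00571, below both thymocyte values.

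The partner genes were grouped by family, taking fragments within 5 kb of a gene. Neighbouring genes can share fragments through this margin, as among the S100, Sprr and Lce1 genes. The counts of genes below are therefore not counts of independent observations. Of the 134 genes of the locus with at least 5 contacts, 42.5% had both thymocyte libraries above both keratinocyte libraries over all their contacts, and 5.22% had the opposite order. For contacts with TAD2, the S100 genes of TAD1, which encode small calcium-binding proteins, had mean Z scores of -0.616 and -0.394 in keratinocytes and 0.209 and 0.651 in thymocytes (104 contacts). Thymocytes were higher without overlap for 5 of the 8 S100 genes measured. S100a8 and S100a9, whose products form calprotectin, were among them. S100a8 gave -0.635 and -0.359 against -0.0355 and 0.978. S100a9 gave -0.912 and -0.72 against -0.165 and 0.131. As a group, 15 other genes of TAD1 showed the same order, with -0.197 and 0.257 against 0.546 and 0.507 (278 contacts). Of these, 7 of 15 were higher in thymocytes without overlap, near the 42.5% of genes over the locus. Rps27, a ribosomal protein gene, gave -0.47 and -0.0307 against 1.6 and 0.837. Nup210l, a nucleoporin-like gene, gave -0.109 and 0.282 against 0.789 and 0.424.

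On the other side of TAD2, the first cornified envelope genes behaved like TAD1. The Sprr genes, for small proline-rich envelope precursors, had mean Z scores of -0.225 and 0.101 in keratinocytes and 0.411 and 0.627 in thymocytes (175 contacts), and thymocytes were higher without overlap for 8 of the 9 measured. Sprr1b gave -0.311 and 0.144 against 0.381 and 0.318, and Sprr2h gave -0.038 and -0.0645 against 0.991 and 0.275. Lor, Prr9 and Lelp1 together gave -0.291 and -0.148 against 0.773 and 0.469 (36 contacts). Lor itself, for loricrin, a main protein of the envelope, gave -0.189 and -0.418 against 0.108 and -0.0413 (12 contacts). Ivl, for the envelope precursor involucrin, gave 0.16 and 0.217 against 0.852 and 1.77 (25 contacts). In none of these 4 groups was a gene higher in keratinocytes without overlap, nor among the 15 other genes of TAD1.

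The late cornified envelope and filaggrin-like genes lie in the far part of TAD3 and in TAD4. As groups their mean Z scores with TAD2 were above the mean of all contacts in every library. In thymocyte library 1 the Lce1 group (0.656) and the Lce3 group with Crct1 (0.644) were only slightly above it (0.613). Single genes such as Tchh were below it in thymocytes. The Lce1 genes had mean Z scores of 1.35 and 0.948 in keratinocytes and 0.656 and 0.957 in thymocytes (375 contacts). Keratinocytes were higher without overlap for 3 of 10 Lce1 genes, 2 of 5 genes among Lce3 and Crct1, and 4 of 7 filaggrin-like genes, and thymocytes for none of them. Lce1e gave 1.88 and 1.5 against 0.815 and 0.395, and Lce3e gave 2.51 and 1.1 against 0.721 and 0.532. Flg, for filaggrin, which bundles keratin filaments, gave 1.83 and 1.85 against 0.882 and 0.656 (16 contacts). Tchh, for trichohyalin of the hair follicle sheath, gave 1.01 and 1.16 against 0.23 and 0.127 (22 contacts). As a group, the filaggrin-like genes gave 1.39 and 0.801 against 0.74 and 0.799 (261 contacts), which did not overlap but left almost no gap. Lce3 with Crct1 gave 1.22 and 0.946 against 0.644 and 1.84 (104 contacts), which overlapped. S100a10 and S100a11, which lie further along the locus than the other S100 genes, gave 0.995 and 0.778 against 0.614 and 1.16 (40 contacts), unlike the S100 genes of TAD1.

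Putative enhancers of the locus, E1 to E16, were taken with the fragments within 10 kb. For all of them together, the mean Z score with TAD2 was 0.451 and 0.45 in keratinocytes and 0.777 and 1.04 in thymocytes (381 contacts). Gene-rich fragments without an enhancer nearby gave 0.661 and 0.578 against 0.511 and 0.771 (2725 contacts). In keratinocytes the pooled enhancer fragments were thus lower than the others in both libraries, and in thymocytes higher in both. E9 alone supplied 140 of the 381 contacts and was high in thymocyte library 2 (1.77). The pooled mean without E9 was not computed, and the enhancer and other fragments were not matched by TAD. Of the 11 enhancers or enhancer groups with contacts, 5 were lower in both keratinocyte libraries than in both thymocyte libraries, and the other 6 overlapped. Over all contacts of the locus, 42.5% of genes and 48% of 100 kb windows were lower in this way, so this count is near the background. The 5 were E1 (-0.501 and -0.0331 against 1.18 and 0.765), E2/E3 (-0.325 and -0.118 against 0.318 and 0.897), E4-E7 (-0.551 and -0.0835 against 0.514 and -0.0423), E8 (-0.037 and 0.351 against 1.47 and 1.59, 8 contacts) and E13 in TAD6 (0.642 and 0.445 against 0.86 and 2.16, 24 contacts). Of those that overlapped, E9 gave 1.01 and 0.625 against 0.845 and 1.77 (140 contacts). E16 had no contact with TAD2 that all 4 libraries list.

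The segments of TAD2 did not all have the same partners. With the gene-rich TADs together, segment 1 had mean Z scores of 0.45 and 0.499 in keratinocytes and 0.566 and 1.02 in thymocytes (656 contacts). Segment 2 gave 0.455 and 0.448 against 0.634 and 0.748 (680 contacts). Both segments were lower in keratinocytes. Segment 3, which holds no gene, had the opposite order, with 0.88 and 0.658 against 0.419 and 0.553 (594 contacts). Segment 4 gave 0.719 and 0.615 against 0.542 and 0.841 (1176 contacts), which overlapped. For each single segment the two-sided exact permutation p was 0.333 or above.

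Segments 3 and 4 were both higher with TAD4 and lower with TAD1 in keratinocytes. In segment 3, the 226 contacts with TAD4 had mean Z scores of 1.42 and 0.903 in keratinocytes against 0.425 and 0.836 in thymocytes. Its 70 contacts with TAD1 had -0.695 and -0.225 against 0.442 and 0.251. Segment 4 gave 1.34 and 0.953 against 0.686 and 0.834 with TAD4 (407 contacts) and -0.119 and 0.386 against 0.545 and 1.26 with TAD1 (183 contacts). Segment 2 was also lower with TAD1 in keratinocytes (-0.0997 and 0.078 against 0.712 and 0.415, 118 contacts). Contacts within segment 3 itself gave 1.36 and 1.16 against 0.637 and 0.262 (21 contacts), and those of segment 3 with segment 4 gave 1.17 and 0.885 against 0.628 and 0.0241 (51 contacts). Contacts within segment 4, which holds Pglyrp3, were near 0 in all libraries (-0.079 and 0.249 in keratinocytes, 0.185 and -0.0104 in thymocytes, 40 contacts). In thymocytes segment 1 stood out by its contacts with TAD3 (0.831 and 1.65 against 0.505 and 0.545 in keratinocytes, 177 contacts) and with the border strip (2.27 and 1.03 against -0.122 and 0.542, 13 contacts).

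**Figure D4:**
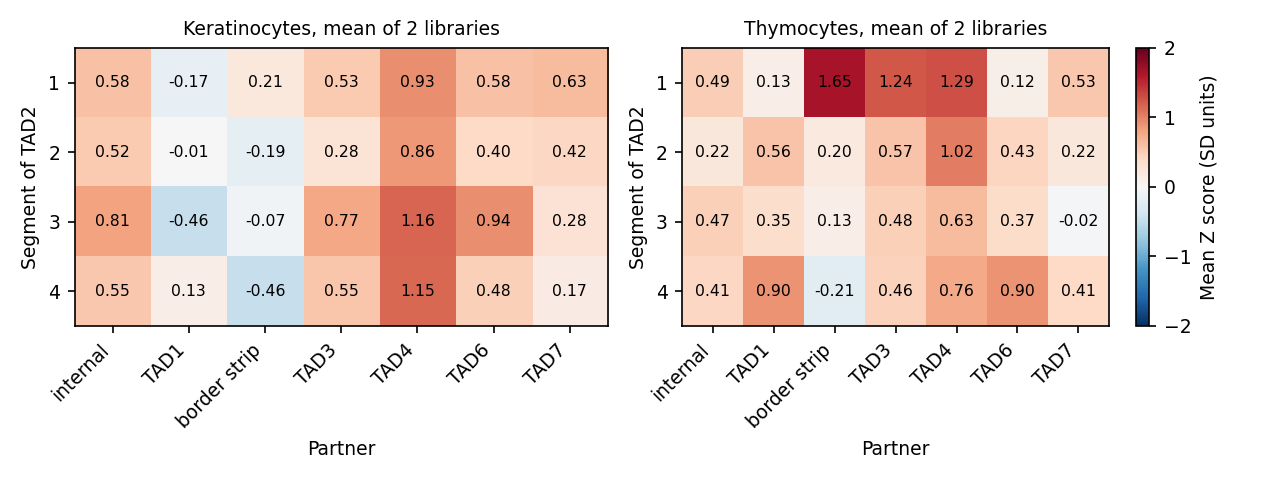
Mean Z score (colour and printed value, SD units) of each segment of TAD2 (rows, segment 1 next to TAD1) with each partner (columns), as the mean of 2 libraries per cell type. In keratinocytes TAD4 is the highest column in every segment (0.86 to 1.16) and segment 3 has its lowest value with TAD1 (-0.46), whereas in thymocytes segment 1 has the highest values with the border strip, TAD3 and TAD4.

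Of the genes inside TAD2, Pglyrp3 (5 fragments) had mean Z scores with TAD4 of 1.72 and 1.05 in keratinocytes and 0.791 and 1.15 in thymocytes (106 contacts), which overlapped. Its contacts with TAD1 gave -0.129 and 0.215 against 0.55 and 1.13, and its contacts inside TAD2 gave -0.158 and 0.0304 against 0.382 and 0.196. Both were lower in keratinocytes. 9130204L05Rik (2 fragments) had internal contacts of 1.67 and 0.931 against 1.33 and 0.656 (38 contacts), above the mean of all internal contacts in each library. The pseudogene Gm6097, which overlaps Pglyrp3, shares its fragments and is not a separate observation.

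An interaction was called when both libraries of a cell type gave it a deposited q-value under 0.05. In keratinocytes 219 of the 10950 TAD2 contacts that both libraries list were called, or 2%, where the background over all contacts was 1.99%. In thymocytes 178 of 4938 were called, or 3.6%, with a background of 4.03%. TAD2 as a whole was thus near the background in both cell types. By partner the keratinocyte calls were uneven. Only 5 of 2120 contacts with TAD1 (0.236%) and 0 of 185 with the border strip were called, against 92 of 3012 with TAD4 (3.05%) and 51 of 1873 with TAD6 (2.72%). In thymocytes 32 of 857 contacts with TAD1 (3.73%), 61 of 1402 with TAD4 (4.35%) and 21 of 604 with TAD6 (3.48%) were called. Internal contacts were called for 16 of 816 in keratinocytes (1.96%) and 12 of 459 in thymocytes (2.61%), below the shares within gene-rich TADs of 3.02% and 5.14%. The libraries listed unequal parts of these pairs, for TAD1 69% and 51.9% in keratinocytes and 31.2% and 35.7% in thymocytes, and a contact that is not listed cannot be called.

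By position, with a contact between segments counted in both, segment 3 had the highest share of its listed contacts called in keratinocytes (51 of 1700, 3%) and the lowest in thymocytes (34 of 1231, 2.76%). Many of these keratinocyte calls came from REV_471 (10 of 78) and REV_538 (10 of 55). Keratinocyte library 1 listed only 99 and 70 contacts of these fragments, against 243 and 243 in keratinocyte library 2. The share of segment 3 without them was not computed. Segment 1 had 48 of 2711 (1.77%) in keratinocytes and 45 of 1020 (4.41%) in thymocytes. The other end of a called contact outside TAD2 lay within 5 kb of a gene in 68% of cases in keratinocytes and 68.7% in thymocytes, against 64.5% and 62.9% of listed contacts. It lay within 10 kb of an enhancer in 9.36% of cases in keratinocytes, against 12.8% of listed contacts, and in 16.3% in thymocytes, against 12%.

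Among the 77 fragments, 19 had no called contact in keratinocytes and 26 had none in thymocytes, with medians of 2 and 1 called contacts per fragment. The 3 leading fragments of each cell type held 14% of the called contact ends in keratinocytes and 18.9% in thymocytes. REV_364 had 13 called contacts of 185 listed in keratinocytes (7.03%), of which 4 were internal to TAD2, 3 were with TAD6 and 3 with TAD7. In thymocytes it had 3 of 19 (15.8%), a lower count but a higher share. REV_471 was among the leading fragments by count in both cell types. It had 10 of 78 called in keratinocytes (12.8%) and 13 of 165 in thymocytes (7.88%), 5 of them with TAD4 in each. REV_538, near the edge of the stretch without probes, had 10 of 55 (18.2%) and 9 of 152 (5.92%). REV_236 and FOR_313 followed REV_471 by count in thymocytes with 12 of 129 (9.3%) and 11 of 121 (9.09%) called. In keratinocytes they had 6 of 244 (2.46%) and 2 of 234 (0.855%). REV_430, which ties with FOR_313 and was added after its values were seen, had 11 of 125 (8.8%) as well, against 4 of 196 (2.04%) in keratinocytes. Over all contacts of the locus, 1.99% were called in keratinocytes and 4.03% in thymocytes. The lists of these fragments differed between libraries. Contacts of 1 fragment share its probe and are not independent. Keratinocyte library 1 listed 99 contacts of REV_471 and 70 of REV_538, against 243 and 243 in keratinocyte library 2, and thymocyte library 2 listed 25 contacts of REV_364 against 214 in thymocyte library 1. The part of these lists in the counts was not tested. Of the 61 fragments with at least 5 contacts in all 4 libraries, 12 had a higher mean Z score in both keratinocyte libraries (13.6% of the 575 such fragments of the locus) and 12 in both thymocyte libraries (25.7%). Over the locus 39.3% of fragments had means that did not overlap in either direction. Of the 42 fragments with values for both partners, 34 had a higher mean with TAD4 than with TAD1 in both keratinocyte libraries, and 19 did so in both thymocyte libraries. This count restates the partner means per fragment and is no further result, and no share over the locus was computed for it.

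**Figure D5:**
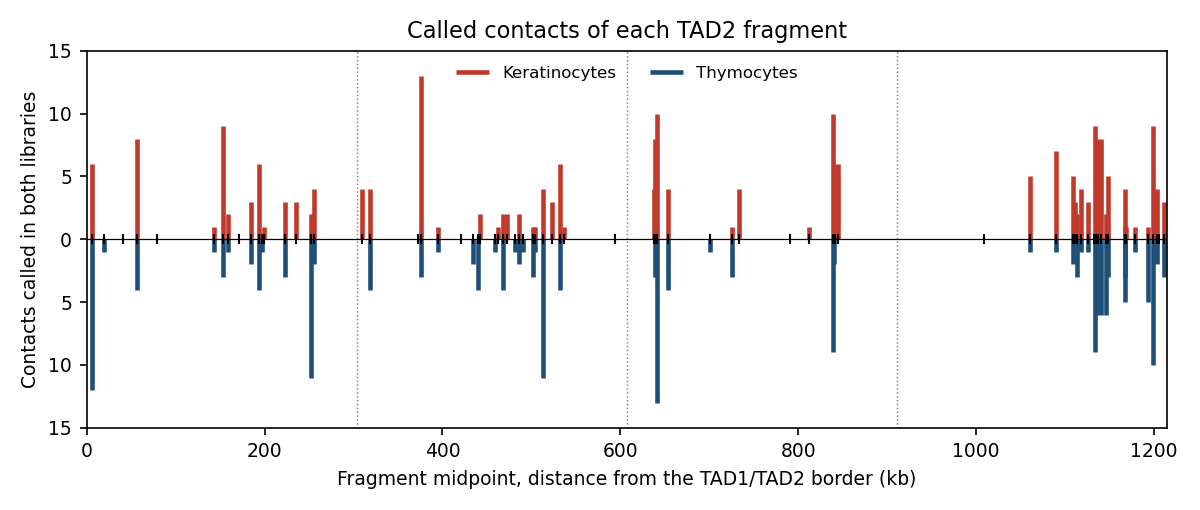
Number of contacts called in both libraries (vertical axis, keratinocytes upwards and thymocytes downwards) for each TAD2 fragment by its distance from the border with TAD1 (horizontal axis, kb), with dotted lines between segments and ticks at the fragments. The tallest bars reach 13 contacts, for REV_364 in keratinocytes and REV_471 in thymocytes, and no fragment lies in the gap between the end of segment 3 and the start of segment 4.

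Of the 3574 TAD2 contacts that all 4 libraries list, 20 were called in all 4, where 136 of all 23395 contacts of the locus were. TAD2 was thus near the share of the locus. By partner these were 9 of 1067 contacts with TAD4, 4 of 970 with TAD3, 3 of 393 with TAD6, 4 of 386 internal contacts and 0 of 546 with TAD1. The internal pairs FOR_470 with REV_471 and FOR_643 with REV_644 join neighbouring fragments. FOR_313 near 9130204L05Rik met REV_661 near Pglyrp3, 923 kb away, so the fragments at both protein-coding genes of TAD2 were joined. Its corrected frequency was 649 and 201 in keratinocytes, where 126 and 69 were expected, and 215 and 584 in thymocytes, where 55.2 and 74.1 were expected. REV_665, also near Pglyrp3, met FOR_973 in TAD4, 971 kb away, with Z scores of 4.54 and 3.47 in keratinocytes and 19.2 and 15.1 in thymocytes. FOR_628 met REV_538 across the stretch without probes, 267 kb away, with Z scores of 9.84 and 8.04 in keratinocytes and 4.24 and 2.58 in thymocytes. FOR_643 alone was in 4 of the 20, and met TAD4 at enhancer E9 with Z scores of 3.33 and 6.7 against 11.9 and 7.2. Further contacts of this list joined TAD2 to fragments near Ivl, Lce1a1, Lce1h, Lce1l, Lce3d (2 contacts), Flg2, Rptn, Tchhl1, Mrpl9, Pogz and, for 1 fragment, Riiad1, Celf3 and Snx27.

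Among the 5 contacts called in thymocytes with the highest Z scores, 1 lay near its expected level in both keratinocyte libraries. It joined FOR_643 with REV_236, the fragment next to the TAD1 border, 1122 kb away. Its corrected frequency was 85.7 and 54.7 in keratinocytes, where 110 and 53.9 were expected, and 207 and 161 in thymocytes, where 37.6 and 22.3 were expected. The Z scores were -0.413 and 0.0328 against 12.3 and 15.8. In keratinocytes the contact with the highest lower Z score of both libraries joined FOR_622 to REV_1198 in TAD4 (10.1 and 16.4), 1736 kb away, and neither thymocyte library listed it. The next joined REV_632 to FOR_955 at Lce3c and Lce3d (8.82 and 11.8), listed in thymocyte library 1 alone with 7.43.

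No single TAD2 contact differed between the cell types after adjustment. limma, fitted to the Z scores of all 23395 contacts, called 0 of the 3574 TAD2 contacts at an adjusted p under 0.05, and 0 (0%) over the locus. Without adjustment, 125 TAD2 contacts were higher and 75 lower in keratinocytes at p under 0.05, with 2.97% and 2.14% as the background over the locus. This balance changed with the libraries used, with 38 higher and 220 lower without thymocyte library 1, 44 and 108 without thymocyte library 2, 137 and 23 without keratinocyte library 1, and 351 and 182 without keratinocyte library 2. In these fits the cell type left with 1 library is assumed to vary like the other. Of the internal contacts, 23 of 386 were higher in keratinocytes and 2 lower, and with TAD4 41 of 1067 were higher and 22 lower. For FOR_643 with REV_236 the estimated difference was -14.3 ± 5.2 (SE) with an adjusted p of 0.767. On simulated libraries with the same spread, this limma fit recovered 68 of 200 contacts shifted by 8 in Z score and 0 of 200 shifted by 4, so differences of the size found between partner means were not detectable for single contacts. Counted without a test, both keratinocyte libraries lay above both thymocyte libraries for 31.9% of internal contacts and 28.3% of contacts with TAD4, with a background of 21.1%, and for 12.8% with TAD1 and 9.76% with the border strip. The opposite order held for 10.1%, 12.5%, 22% and 24.4% of them, with a background of 19.1%.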

How the data were processed

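Per the labels and the study's methods, the authors mapped 5C reads to a pseudo-genome of all probes with Bowtie (build mm9), dropped outlying probes and isolated very strong contacts, and normalised probe coverage with Loess smoothing. The deposited signal is the corrected 5C frequency, with the expected frequency and its SD at each distance. The deposited score is the Z score. Columns with the p-value and q-value of each contact, from the authors' peak calling per library, were deposited too. These steps remove scale differences between probes, and contacts that were not listed have no value.

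Groups were taken from the sample titles. The members, gene groups and enhancers were chosen with earlier results of these data known. Library means were compared with two-sided exact permutation tests, and single contacts with limma 3.58.1 (lmFit, eBayes with trend, Benjamini-Hochberg adjustment) in R 4.3.3. Matched comparisons used 50 kb bins with at least 3 contacts of each kind. Averages of the border table of the study set the TADs. Named were the contacts called in all 4 libraries, the 5 called contacts of each cell type with the highest lower Z score, and the 3 fragments of each cell type with the most called contacts, with examples of each gene group. The limma and matched steps were tested on simulated data. Alternatives were other scales, summaries, borders, thresholds and contact sets, a fit with the replicate block, omission of 1 library at a time and, chosen after seeing the data, omission of 1 strong contact. Probe sequences came from the study's probe list, without their universal tails.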

Additional observations from a re-analysis of the deposited data

Results flagged for a closer look

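Compared at the same distance, contacts of TAD2 with TAD3 lay below contacts of TAD2 with TAD4 in both keratinocyte libraries (-0.654 and -0.318 in Z score) and above them in both thymocyte libraries (0.0626 and 0.0408). The difference between the cell types was -0.538 (two-sided exact permutation p = 0.333, the smallest that 2 libraries against 2 allow). The sign was thus opposite in the cell types, but both thymocyte values were small. Only 500 of the 970 contacts with TAD3 lay in bins matched with TAD4. The comparison was not repeated with medians, other bins, other borders or without each library in turn. Without matching, the difference between the cell types for TAD3 was -0.0965, and it was 0.288 with the average thymocyte borders. Of the comparisons at matched distance made here, no other had such opposite signs.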

How the results depend on the processing

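The lower mean Z score of TAD2 with TAD1 in keratinocytes kept its direction under all 13 alternatives, and without each library in turn it ranged from -0.792 to -0.374. Some of these could not change it. The limit of 50 kb or more kept all 546 contacts, and the replicate block leaves the difference the same by construction. With medians the difference was -0.164 and the separation of the libraries was lost. The internal difference was reversed by the average thymocyte borders (-0.0784), lost the separation of the libraries with the average keratinocyte borders (0.114), over contacts listed in both libraries of 1 cell type (0.12), with equal weight per fragment (0.155) and at 50 kb or more (0.208), and ranged from 0.0993 to 0.376 without each library. For TAD3 the difference was reversed by the same borders (0.288), with a range of -0.195 to 0.00182 without each library. For TAD4 it was reversed over contacts listed in both libraries of a cell type (-0.0353) and with equal weight per fragment (-0.00196), with a range of -0.0747 to 0.39. For TAD6 it was reversed on the log2 observed over expected scale (-0.0193) and with the average keratinocyte (-0.0441) and thymocyte (-0.148) borders, with a range of -0.0919 to 0.111. For TAD7 it was reversed by the median (-0.061) and the log2 scale (-0.115), with a range of -0.153 to 0.246. At matched distance, the internal contacts minus those within gene-rich TADs gave 0.0107 with medians and -0.366 to -0.201 without each library. TAD2 with gene-rich TADs gave -0.0148 over all contacts of each library (0.0216 to 0.128 without each library), and its difference between cell types gave -0.0396 with medians (0.00581 to 0.225 without each library). The percent called in keratinocytes was 1.2 at a q-value under 0.01, 2.8 under 0.1 and 2.43 over contacts in all 4 libraries, and that in thymocytes was 2.51 at a q-value under 0.01. In 1 library alone it was 7.06 to 10.8 in keratinocytes and 8.4 to 12.7 in thymocytes. limma called 0 contacts under each alternative. The cause of these reversals was not tested.

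The labels do not pair the libraries, which share only a replicate number. With the replicate block, the differences in means were the same by construction (-0.583 for TAD1, 0.238 for internal contacts) and limma called 0 contacts of TAD2, with 202 against 200 at an unadjusted p under 0.05. The deviations of same-numbered libraries correlated at -0.0791 across TAD2 contacts.

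The unlisted contacts and the 2 libraries per cell type limit these results. The depth in reads is unknown, and the stretch of 162 kb without probes was not measured.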
